A study of Mus musculus with 10 samples.

Results

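The inflammasome and interleukin-1 genes described here are 10 genes of innate immunity: the sensors Nlrp3 and Aim2, the adaptor Pycard, the caspases Casp1 and Casp4, the pore protein Gsdmd, the cytokines Il1b and Il18, the receptor antagonist Il1rn and the decoy receptor Il1r2. They were chosen by name as textbook members of this pathway, and each symbol matched 1 of the 48526 rows of the count table. RNA was sequenced from cells sorted from the aorta of mice of the ApoE strain, 5 libraries from stressed and 5 from non-stressed animals. The labels give no more of the genotype, the age or the number of animals behind a library. Stressed mice were put under acute mental stress daily over 3 days in a row, 3 h at a time, before the aortae were taken; the question was how this stress changes aortic endothelial cells. The labels do not say whether each replicate of a group came from a separate animal. Each group mixed libraries with Y-linked reads and libraries without them, so its libraries did not all come from the same animal. The p-values measure only the spread between these libraries, part of which may be technical.

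An inflammasome is a protein platform that forms in the cytoplasm when a sensor detects a danger signal: NLRP3 responds to ion fluxes and membrane damage, and AIM2 binds double-stranded DNA. The sensor recruits the adaptor ASC (the product of Pycard), which gathers caspase-1; caspase-1 then cuts the precursors of interleukin-1 beta and interleukin-18 and opens gasdermin D pores, through which the cytokines leave the cell. Transcription of Il1b rises on stimulation of myeloid cells, and priming or interferon can also raise Nlrp3, Casp4 and Aim2. In the atherosclerotic artery wall macrophages and neutrophils are known sources of interleukin-1 beta.

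The genes lie on 6 chromosomes of the mm10 build, and all are annotated as protein-coding. Nlrp3 (ENSMUSG00000032691) spans chr11:59541568-59566956, Aim2 (ENSMUSG00000037860) chr1:173350879-173466040 and Il1r2 (ENSMUSG00000026073) chr1:40074079-40125231, all on the plus strand. Casp1 (ENSMUSG00000025888) at chr9:5298517-5307265 and Casp4 (ENSMUSG00000033538) at chr9:5308828-5336783 are neighbours, 1562 bases apart on the same strand, and Il18 (ENSMUSG00000039217) is further along at chr9:50554827-50581840. Gsdmd (ENSMUSG00000022575) spans chr15:75862327-75867408 and Il1rn (ENSMUSG00000026981) chr2:24336853-24351494, both on the plus strand. Pycard (ENSMUSG00000030793, chr7:127989708-127993867) and Il1b (ENSMUSG00000027398, chr2:129364570-129371139) are on the minus strand. Exons of Pycard share 485 bases with the antisense gene Gm45205 and those of Il1b share 25 bases with the antisense gene Il1bos; these antisense genes held 21 and 207 reads in all libraries together, and the strand setting of the counting is not given in the sources used here.

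Promoter sequences from RefSeq (GRCm38.p6, the mm10 assembly) matched 9 of the 10 genes. Shown are Il1b and Il1r2, whose levels varied most between libraries, and Nlrp3 and Casp4, whose levels varied little. The stretches are Il1b on the minus strand of chr2:129371140-129371389, Casp4 on the plus strand of chr9:5308599-5308827, Nlrp3 on the plus strand of chr11:59541319-59541567 and Il1r2 on the plus strand of chr1:40085852-40085984. Nlrp3 and Casp4 each have a second annotated start site, which is not shown. The stretches are written 5′ to 3′, leave out bases in annotated exons, and have in capitals each match, on either strand, to one of 7 motifs.
Il1b: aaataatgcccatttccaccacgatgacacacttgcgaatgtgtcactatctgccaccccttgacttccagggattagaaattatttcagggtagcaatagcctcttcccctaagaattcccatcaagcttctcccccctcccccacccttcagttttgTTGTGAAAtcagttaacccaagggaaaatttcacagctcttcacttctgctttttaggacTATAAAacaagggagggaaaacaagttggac
Casp4: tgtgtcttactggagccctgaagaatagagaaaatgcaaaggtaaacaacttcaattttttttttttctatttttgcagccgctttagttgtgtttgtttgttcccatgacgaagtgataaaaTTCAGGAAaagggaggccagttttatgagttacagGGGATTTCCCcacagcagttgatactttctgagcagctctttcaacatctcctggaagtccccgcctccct
Nlrp3: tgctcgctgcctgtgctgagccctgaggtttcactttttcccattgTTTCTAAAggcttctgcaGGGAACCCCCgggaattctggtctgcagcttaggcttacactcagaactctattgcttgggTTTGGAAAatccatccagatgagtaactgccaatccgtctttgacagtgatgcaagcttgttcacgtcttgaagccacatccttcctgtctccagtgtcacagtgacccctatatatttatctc
Il1r2: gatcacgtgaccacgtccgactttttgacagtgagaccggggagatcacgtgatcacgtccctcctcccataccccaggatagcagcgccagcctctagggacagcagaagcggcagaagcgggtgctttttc
The motifs were those of NF-kB (GGGANNNNCC), C/EBP (TTNNGNAA), PU.1 (GAGGAAG), the TATA box (TATAAA), ISRE (GAAANNGAAA), AP-1 (TGANTCA) and GAS (TTCNNNGAA). The Il1b stretch held a C/EBP word from 91 to 84 bases before the start site and a TATA box from 31 to 26 bases before it. Casp4 held the NF-kB word GGGATTTCCC and a C/EBP word, Nlrp3 held an NF-kB word and a pair of C/EBP words at the start site shown (its other start site held no NF-kB word, 1 C/EBP word and 2 PU.1 words), and the Il1r2 stretch held no complete word. Over 32851 RefSeq promoter windows of 250 bases, 17.6% held the NF-kB word, 36.9% C/EBP, 10.6% PU.1, 12.4% the TATA box, 2.98% ISRE, 6.75% AP-1 and 7.02% GAS. A match is a description of the letters, not a binding site or a cause of a level. C/EBP words stood in the steady genes Nlrp3 and Casp4 and in the variable gene Il1b. None stood in the variable gene Il1r2 or in Casp1, the steadiest gene, which is not shown.

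The libraries held 18020220 to 38237346 counts, so that a gene with no read could have a level of up to 0.0785 to 0.166 CPM (the gene's counts per 1000000 counts of its library; taken as 3 counts, and covering counting error only). The label of endothelial cells went against the markers. The 12 endothelial markers summed to 34.5 to 91.2 CPM per library, and Cdh5, the cadherin of endothelial junctions, was at most 0.994 CPM and at 0 in 2 libraries, whereas 12 macrophage and monocyte markers summed to 22240 to 34240 CPM. Xist was detected in 4 libraries and more than 100 reads of Ddx3y, a gene of the Y chromosome, in 6, with 2 and 3 of them in each group. Of 13334 genes tested with edgeR's quasi-likelihood test, 1 passed an adjusted p of 0.05: Chil3, a chitinase-like protein of myeloid cells, rose from 1196 ± 189 CPM to 3722 ± 450 CPM (SD, n = 5 each; log2 fold change 1.64, SE 0.11, adjusted p = 4.14e-06), with no overlap of the groups.

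None of the 10 inflammasome and interleukin-1 genes passed the test for a change with stress. All 10 passed the low-count filter, and 0 passed the adjusted threshold in edgeR (0 also in DESeq2 and in limma-voom), where 0.0075% of all tested genes did; 0 had an unadjusted p under 0.05 in edgeR, where 5.53% of all genes did (1, Pycard, in DESeq2 and in limma-voom); and in 0 were the groups free of overlap, where 1.11% of all genes were. Over all genes, the unadjusted p was under 0.05 in 1116 of 22902 in DESeq2 and in 1179 of 13334 in limma-voom. For the 10 genes the adjusted p-values in edgeR ran from 0.894 to 0.998, and 8 of the 10 fold changes were above 0. Their median log2 fold change was 0.07, beside 0.0045 over all genes tested. Within these groups, however, the genes behaved in very different ways. Nlrp3, Aim2, Pycard, Casp1, Casp4 and Gsdmd are called the platform genes here for short, although Casp4 and Gsdmd are effectors rather than parts of the platform. These 6 genes differed by 1.29-fold to 1.89-fold between the highest and lowest of all 10 libraries, whereas Il1b spanned 9.93-fold and Il1r2 10.8-fold.

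**Figure D1:**
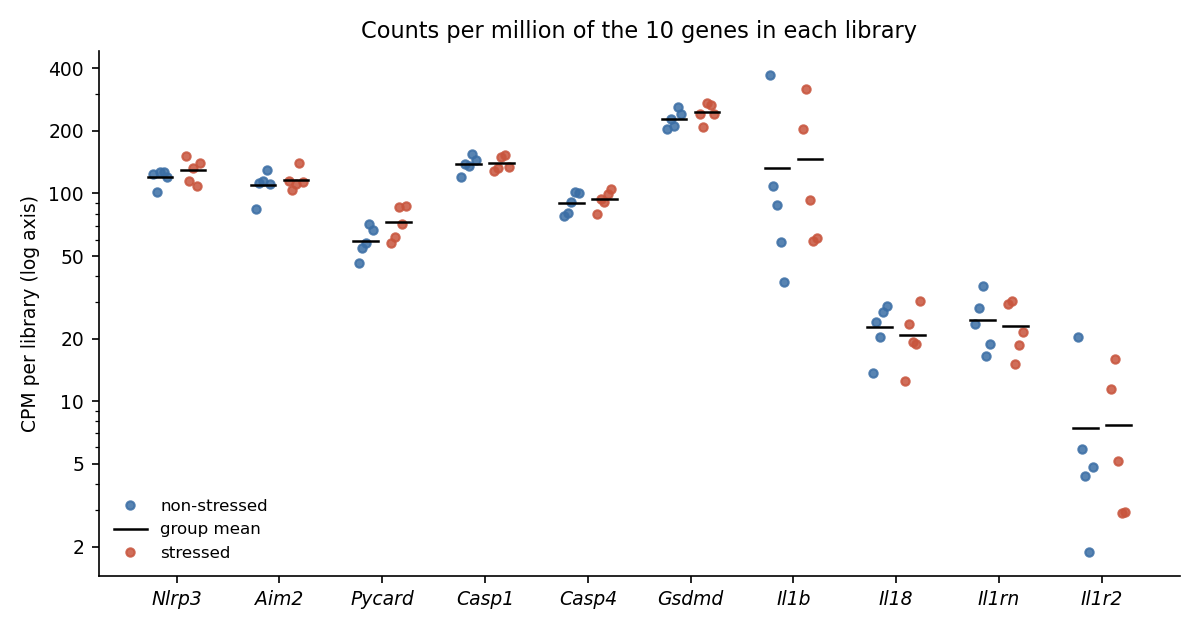
Level of each of the 10 genes in every library, in CPM on a log axis, with non-stressed libraries in blue, stressed ones in red and a bar at the mean of each group of 5. Nlrp3, Aim2, Pycard, Casp1, Casp4 and Gsdmd form tight clusters, Il1b runs from 37.6 to 373 CPM and Il1r2 from 1.89 to 20.4 CPM, and the groups overlap for every gene.

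Nlrp3, the sensor most studied in atherosclerosis, was counted at 124, 102, 127, 126 and 120 CPM in non-stressed replicates 1 to 5 and at 151, 115, 132, 108 and 140 CPM in the stressed ones. Replicates 1, 3 and 5 of the stressed group lay above every non-stressed library, the other stressed ones lay among them, and the log2 fold change was 0.11 (SE 0.10, 95% interval -0.10 to 0.33, adjusted p = 0.950). Aim2, the DNA sensor, was at 84.2, 112, 114, 130 and 111 CPM without stress and at 114, 104, 111, 140 and 114 CPM with it. Its highest value was in stressed replicate 4, the lowest in non-stressed replicate 1, and the groups overlapped (log2 fold change 0.08, SE 0.11, adjusted p = 0.971).

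Pycard encodes ASC, the adaptor that joins sensor and caspase. It stood at 46.0, 54.8, 57.5, 71.3 and 67.0 CPM in the non-stressed libraries and at 58.1, 61.6, 86.3, 71.4 and 87.2 CPM in the stressed ones. Replicates 3, 4 and 5 of the stressed group exceeded the highest non-stressed library, and the other 2 lay within the non-stressed range. Stressed replicate 4 was nearly level with that library (71.37 against 71.28 CPM). It had the largest fold change of the 10 genes, at log2 0.30 (SE 0.14, 95% interval -0.0058 to 0.61), with an unadjusted edgeR p of 0.0539 and an adjusted p of 0.894, so the difference did not pass the test. The unadjusted p was under 0.05 in 9 of 19 alternatives, among them DESeq2 (0.0458) and limma-voom (0.0177), and the adjusted p in none of them. These alternatives reuse the same libraries, so they are not separate tests.

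Casp1, the protease that matures both cytokines, was the steadiest of the genes, at 120, 139, 136, 155 and 145 CPM without stress and at 128, 132, 149, 154 and 135 CPM with it. The groups overlapped over nearly their whole ranges, and the 95% interval of the fold ran from 0.889 to 1.14 (log2 fold change 0.01, SE 0.08). Casp4, the mouse caspase-11 that senses bacterial lipopolysaccharide inside the cell, ran from 77.5 to 102 CPM in the non-stressed and from 79.3 to 105 CPM in the stressed libraries (log2 fold change 0.06, SE 0.11). Gsdmd, the pore that both caspases open, was at 205, 229, 211, 261 and 240 CPM against 240, 210, 273, 267 and 241 CPM. Stressed replicate 2 was among the lowest Gsdmd values and stressed replicates 3 and 4 the highest, with a log2 fold change of 0.11 (SE 0.09, 95% interval -0.08 to 0.30). For these 3 effectors a change of more than 1.23-fold in either direction lay outside the 95% intervals.

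**Figure D2:**
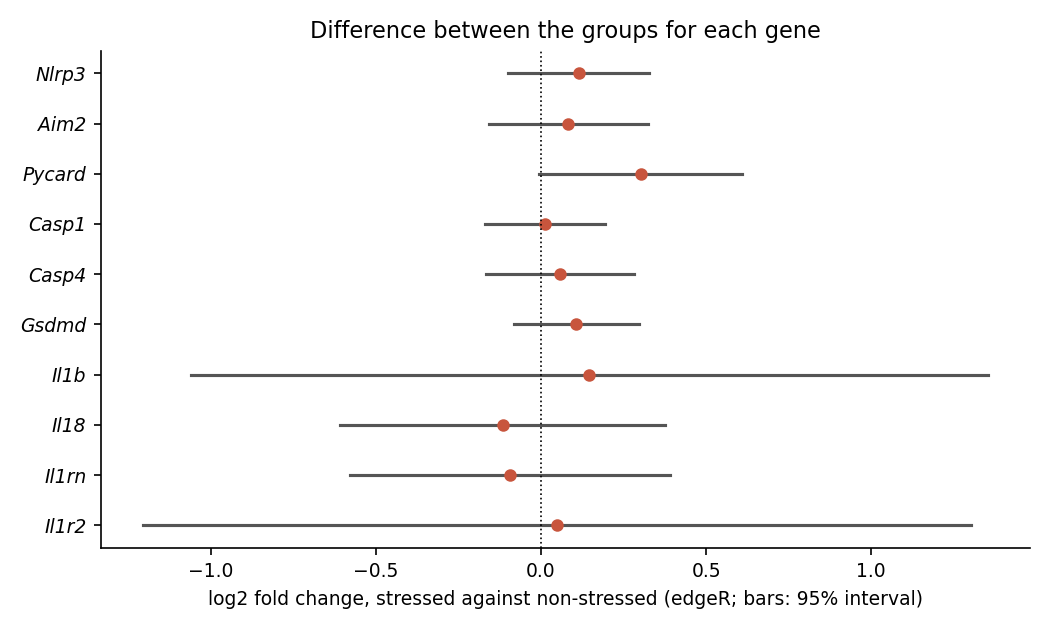
Log2 fold change of each gene, stressed against non-stressed, from edgeR (points) with its 95% interval (bars); the dotted line is no difference. Every interval includes 0; those of the 6 platform genes lie between -0.17 and 0.61, and those of Il1b and Il1r2 reach from -1.06 to 1.35 and from -1.21 to 1.30.

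Il1b, the cytokine that drives fever and endothelial activation, was at 373, 108, 88.3, 58.6 and 37.6 CPM in non-stressed replicates 1 to 5 and at 204, 317, 92.7, 59.1 and 61.2 CPM in the stressed ones. Non-stressed replicate 1 and stressed replicates 2 and 1 held the 3 highest values, so that high libraries occurred in both groups. The means were 133 ± 137 CPM and 147 ± 112 CPM (SD, n = 5 each). The log2 fold change was 0.15 (SE 0.56, adjusted p = 0.996). Its 95% interval ran from 0.480-fold to 2.55-fold and so held both falls and rises. The smallest change that these libraries could detect was not tested. Without non-stressed replicate 1 the log2 fold change was 0.995 (edgeR unadjusted p = 0.0456, adjusted p = 0.925). Without stressed replicate 2 it was -0.35 (edgeR adjusted p = 0.969), and neither passed the adjusted threshold. Il18, the other cytokine cut by caspase-1, was at 13.7, 24.0, 20.4, 26.8 and 28.8 CPM against 12.5, 23.6, 19.2, 18.9 and 30.3 CPM. It was lowest in replicate 1 of both groups, where Il1b was high, and its log2 fold change was -0.12 (SE 0.23, adjusted p = 0.987).

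The inhibitors of the pathway split the same way. Il1rn, the antagonist that occupies the interleukin-1 receptor without signalling, was at 23.5, 28.0, 36.0, 16.4 and 18.9 CPM without stress and at 29.2, 30.3, 15.2, 18.6 and 21.6 CPM with it. The highest value was in non-stressed replicate 3 and the lowest in stressed replicate 3 (log2 fold change -0.09, SE 0.23, adjusted p = 0.989). Il1r2, a decoy receptor that binds interleukin-1 beta and does not signal, was at 20.4, 5.88, 4.37, 1.89 and 4.83 CPM against 11.4, 16.02, 5.16, 2.88 and 2.94 CPM. The 3 libraries highest in Il1b were also the 3 highest in Il1r2; the log2 fold change was 0.05 (SE 0.59, 95% interval -1.21 to 1.30, adjusted p = 0.998). The lowest Il1r2 value rested on 48 reads. Without non-stressed replicate 1 its log2 fold change was 0.84 and without stressed replicate 2 it was -0.42, and neither passed the test.

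**Figure D3:**
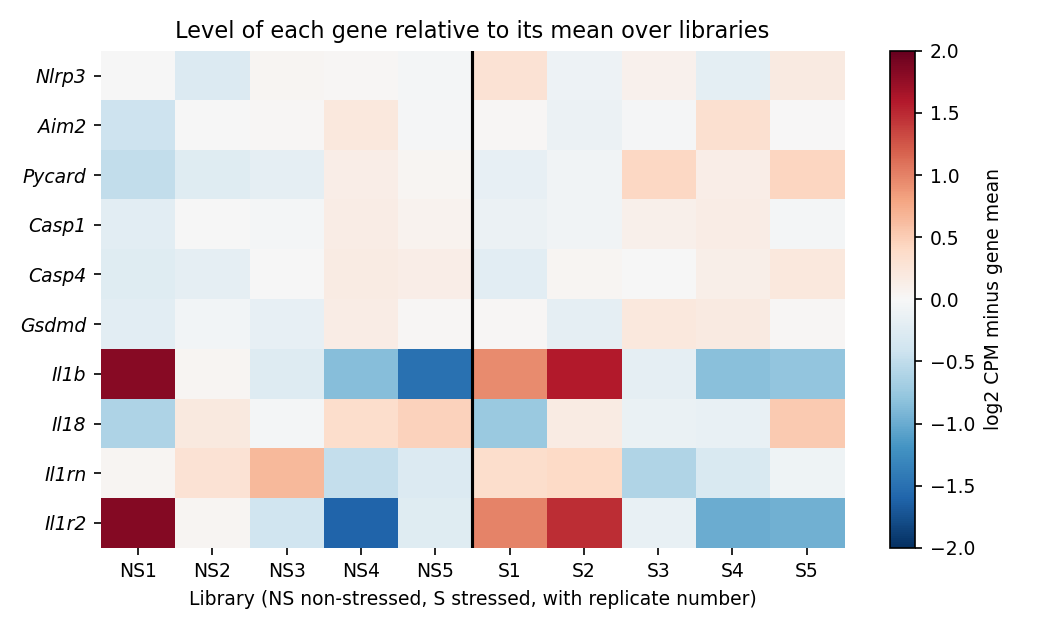
Log2 CPM of each gene (rows) in each library (columns, NS non-stressed and S stressed with the replicate number) minus the gene's mean over the 10 libraries; the black line parts the groups. Il1b and Il1r2 are high in NS1, S1 and S2 and low in NS4, S4 and S5, while the rows of the 6 platform genes stay pale.

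The balance of antagonist to cytokine was compared as a ratio, whose range comes mostly from Il1b. The log2 ratio of Il1rn to Il1b was -2.01 ± 1.17 in the non-stressed and -2.39 ± 0.793 in the stressed libraries (SD, n = 5 each), a difference of -0.38 (two-sided exact permutation test, p = 0.556; adjusted over a family of 10 measures, p = 0.617; the smallest p this design allows is 0.00794). It ran from -3.99 in non-stressed replicate 1 to -0.99 in non-stressed replicate 5, that is, over the whole range within 1 group. The log2 ratio of Il18bp, which encodes the soluble protein that binds interleukin-18, to Il18 was -2.28 ± 0.569 against -1.87 ± 0.977, a difference of 0.41 (SD, n = 5 each; two-sided exact permutation test, p = 0.437, adjusted p = 0.617). Without stressed replicate 4, where Il18bp was at 1.59 CPM, that difference was 0.84 (exact permutation test, p = 0.0397, not adjusted).

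Per kilobase of exon (RPKM, CPM per 1000 exonic bases), Gsdmd and Casp1 stood highest of the 10 genes, with mean levels over all libraries of 100.1 ± 10.2 and 93.0 ± 7.58 RPKM (SD, n = 10). Il1b followed at 73.4 ± 61.9 RPKM, then Aim2 at 32.4, Nlrp3 at 30.7, Casp4 at 24.8, Il18 at 21.2 and Pycard at 17.4 RPKM. The inhibitors were lowest, with Il1rn at 4.29 and Il1r2 at 3.97 RPKM. Exonic bases were the union of all annotated exons of a gene, 3800 for Pycard and 5535 for Il1rn. A transcript can be shorter than that union, so the order depends on the annotation. Neighbours in this order differed beyond their spread in 3 places: Gsdmd lay above Casp1 in 9 of 10 libraries, Nlrp3 above Casp4 in 9 and Pycard above Il1rn in 10. The other neighbours did not; Casp1 exceeded Il1b in 7 libraries, and in the remaining ones Il1b had more RNA per length than any gene of the platform.

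The spread between libraries of a group was small for the platform and large for Il1b and its decoy receptor. The SD of log2 CPM within a group was 0.13 for Casp1, 0.15 for Gsdmd, 0.17 for Nlrp3 and for Casp4, 0.20 for Aim2 and 0.27 for Pycard. These lie below the median of 0.29 over all tested genes, whatever their level, and genes of a similar level were not compared. Il1rn (0.43) and Il18 (0.45) lay above that median, and Il1b and Il1r2 each had an SD of 1.16, at the 84.3rd percentile of tested genes.

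**Figure D4:**
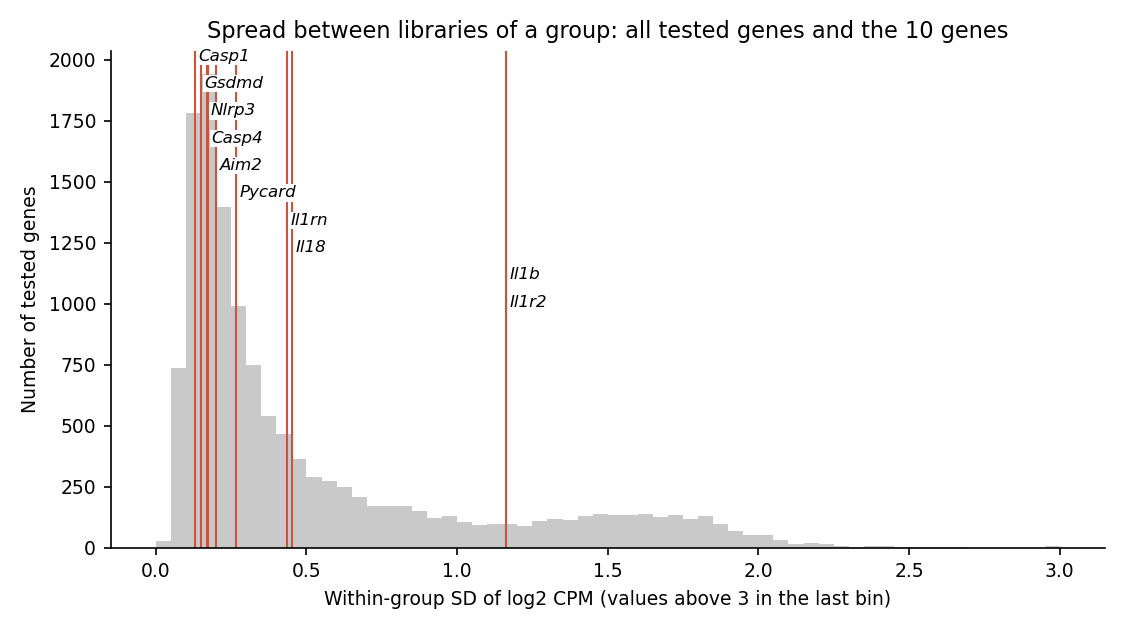
Number of tested genes (grey bars) by their SD of log2 CPM within groups, with red lines at the 10 genes. The 6 platform genes lie between 0.13 and 0.27, below the median of 0.29 over 13334 genes, and Il1b and Il1r2 lie together at 1.16.

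Over the 10 libraries Il1b and Il1r2 were high and low in much the same libraries (Pearson's r = 0.91, permutation p = 0.00075; Spearman's rho = 0.88, permutation p = 0.00151). Across the 125 relations computed among these genes and with marker lists, the adjusted p was 0.0685, so this relation did not pass the correction, and neither did any other. Without the 2 libraries farthest from the Il1b median, r was 0.74, and in the 6 libraries with Y-linked reads it was 0.98. Of the 6 platform genes, 5 went the other way. For Aim2, Pycard, Casp1, Casp4 and Gsdmd, r with Il1b ran from -0.79 to -0.64 (rho -0.79 to -0.58, adjusted p 0.0685 to 0.132). With Il1r2 it ran from -0.82 to -0.67 (rho -0.81 to -0.64, adjusted p 0.0685 to 0.1315). Without the 2 libraries farthest from the median of the platform gene, these r were -0.65 to -0.21 and -0.76 to -0.32. Nlrp3 was the exception, with r = 0.08 with Il1b (permutation p = 0.837; rho = 0.03). CPM values of a library share its total.

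Some markers of neutrophils were high in the same libraries as Il1b. S100a8, a calcium-binding protein abundant in neutrophils and monocytes, was at 567, 237, 158, 39.7 and 35.7 CPM in non-stressed replicates 1 to 5 and at 276, 362, 93.8, 110 and 75.7 CPM in the stressed ones. Its 3 highest libraries were those highest in Il1b and Il1r2. The whole marker list followed Il1b less closely: its mean level was 5.05 in non-stressed replicate 2, where Il1b was at 108 CPM, and 4.97 in non-stressed replicate 1, where Il1b was at 373 CPM. Over 10 libraries the mean log2(CPM + 1) of 12 neutrophil markers had r = 0.84 with Il1b (permutation p = 0.00262, adjusted p = 0.0685; rho = 0.84; r = 0.86 without the 2 libraries farthest from the Il1b median) and r = 0.77 with Il1r2 (permutation p = 0.00986, adjusted p = 0.0685; rho = 0.70; r = 0.73 without them). The summed level of the 12 markers was 811 to 2590 CPM in the non-stressed and 1081 to 2381 CPM in the stressed libraries, and their mean level did not differ between the groups beyond the spread (4.16 ± 0.872 against 4.69 ± 0.932, SD, n = 5 each; exact permutation test, p = 0.365, adjusted p = 0.617). The granule genes Camp and Ltf were at 0 in 5 libraries each, non-stressed replicate 1 among them, and Ly6g, the surface marker used to sort neutrophils, was at most 5.19 CPM. Markers of T and NK cells had a similar relation with Il1b (r = 0.78, permutation p = 0.00863, adjusted p = 0.0685, rho = 0.81, r = 0.75 without those 2 libraries). Their summed levels were 24.6 to 150 CPM in the non-stressed and 15.98 to 109 CPM in the stressed libraries. Such relations were not particular to Il1b and Il1r2. With the T and NK markers r was -0.83 for Casp4, -0.83 for Pycard and 0.78 for Il1rn (permutation test, adjusted p = 0.0685, 0.0685 and 0.0781), but -0.18 for Nlrp3. Gsdmd had r = 0.82 with the macrophage and monocyte markers (permutation test, adjusted p = 0.0685). The part of any of these cell types in the levels of these genes was not tested. In bulk RNA fewer cells of a type and less RNA per cell cannot be told apart.

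**Figure D5:**
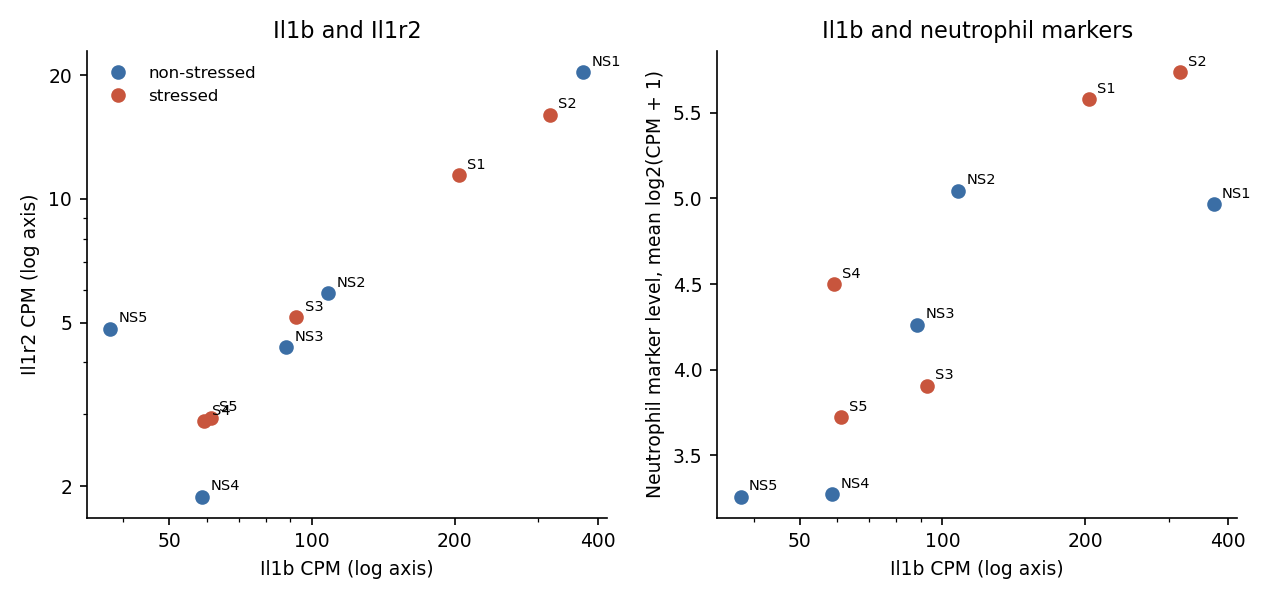
Il1b in each library (horizontal, CPM on a log axis) against Il1r2 (left, CPM on a log axis) and against the mean log2(CPM + 1) of 12 neutrophil markers (right); labels give group and replicate. NS1, S2 and S1 lie at the upper right for Il1r2, and NS1, with the highest Il1b at 373 CPM, has a lower neutrophil level than S1 and S2.

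Genes with the pattern most like each of 3 members were listed as a description, by Pearson's r of log2 CPM after taking out group means, over 10 libraries and 10094 genes. Among those nearest to Il1b were Srgn (r = 0.98), Selenon, Ets2, Grina and Adam8 (each 0.97). Among those nearest to Il1r2 were Havcr2 (0.97), B4galnt1 (0.96), Pag1 (0.96) and Dse (0.95), and among those nearest to Nlrp3 were Vps11 (0.92), Tubd1 (0.90), Padi4 (0.89) and Perm1 (0.89).

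The rest of the pathway held no called gene either. Of 59 further genes tested from 5 lists, 0 passed the adjusted threshold in either direction and 4 had an unadjusted edgeR p under 0.05, beside the 5.53% of all genes. These 4 were Nlrc5, an NLR protein that switches on MHC class I genes (log2 fold change -0.34, adjusted p = 0.830), Ninj1, which ruptures the membrane of dying cells (0.27, adjusted p = 0.874), Card9, an adaptor of fungal sensing (0.35, adjusted p = 0.836), and Peli1, a ubiquitin ligase of receptor signalling (-0.21, adjusted p = 0.836). They were named after their values were seen. Peli1 was at 131 to 146 CPM without stress and at 109 to 131 CPM with it, and its groups did not overlap, as in 1.11% of all genes; those of the other 3 did.

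Among 16 other sensors, 7 had fold changes above 0 and 9 below, with a median log2 fold change of -0.01. Nlrc4, which takes part in the response to flagellin, ran from 38.2 to 52.8 CPM (log2 fold change 0.04, SE 0.11). Nlrp1b, cleaved by anthrax lethal factor, ran from 26.6 to 77.6 CPM (-0.26, SE 0.23). Nlrp1b has close relatives, so its reads are uncertain. Among 18 genes that trigger or carry out inflammasome responses, 9 lay above 0 and 9 below, with a median of -0.01. Nek7, the kinase that NLRP3 binds, had a log2 fold change of -0.05 (SE 0.10), P2rx7, the ATP-gated channel, -0.03 (SE 0.10), Casp8 -0.14 (SE 0.09) and Txnip, a thioredoxin-binding protein, -0.19 (SE 0.13).

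Of the 7 other ligands of the interleukin-1 family, 5 had no read in any library and 1 could be tested. Il1a, which encodes interleukin-1 alpha and lies 54597 bases from Il1b, had 91 reads in all libraries together, at 0 to 0.487 CPM in the non-stressed and 0 to 2.26 CPM in the stressed libraries, and was too low to test. Il1b therefore stood far above its neighbour in every library. The ligand tested was Il1f9 (interleukin-36 gamma), at 1.49 to 28.2 CPM, with a difference of log2 0.19 (SE 0.57) and an adjusted p of 0.993.

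The receptors were uneven too: Il1r1, the receptor through which interleukin-1 signals, had 51 reads in all libraries together and was at most 0.666 CPM, while its partner chain Il1rap was at 22.4 to 50.5 CPM (log2 fold change 0.14, SE 0.20). Il1r1 lies 99848 bases from Il1r2, whose lowest level was 1.89 CPM. Il18r1 ran from 1.74 to 10.5 CPM (log2 fold change -0.42, SE 0.48) and Il18rap, the second chain of the interleukin-18 receptor, from 4.42 to 40.8 CPM (-0.31, SE 0.49). Il18bp had a log2 fold change of 0.47 (SE 0.39) and Sigirr, an inhibitory receptor of the family, of -0.12 (SE 0.17). Of 9 receptors and binding proteins, 7 were tested, 2 above 0 and 5 below, with a median log2 fold change of -0.31; the groups overlapped in each one named. Downstream, 17 signalling genes had a median of -0.0071, and the adaptor Myd88 (-0.04, SE 0.09), the kinase Irak2 (0.02, SE 0.13) and the inhibitory Irak3 (0.03, SE 0.11) differed by less than their errors.

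The comparison was repeated within the libraries parted by sex-linked transcripts. In the 4 Xist libraries the stressed minus non-stressed difference of log2 CPM was -0.07 for Il1b and -0.76 for Il1r2, and in the 6 libraries with Y-linked reads it was 0.54 and 0.75. The medians over the 10 genes were 0.10 and 0.04. Each group gave 2 Xist libraries and 3 with Y-linked reads. Non-stressed replicate 1, highest in Il1b and Il1r2, was an Xist library. Stressed replicate 2, next highest in both genes, had Y-linked reads. The difference between the splits was tested as an interaction in edgeR, and 0 of the 10 genes passed at an unadjusted or adjusted threshold.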

How the data were processed

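Per the labels' protocols, sorted cells gave RNA through a PicoPure kit, and TruSeq Stranded libraries were built from it. The submitters' processing notes name Trimmomatic, STAR, featureCounts and mm10; for versions, annotation and strand setting, nothing is given in the sources used here. The deposited values are raw read counts per gene, not normalized by the authors, in 1 table whose columns were matched to samples by their descriptions. Symbols, coordinates and exonic lengths came from the GENCODE annotation of mm10; 468 identifiers had no symbol.

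Counts were tested with edgeR 4.0.16 (R 4.3.3): TMM factors, filterByExpr at a minimum count of 10, group as the only term over all 10 libraries, the quasi-likelihood test and Benjamini-Hochberg adjustment over 13334 genes at 0.05. The filter kept 99.9% of counts. CPM use the plain library total. The test was checked on simulated counts in which every gene had the same, median spread. Genes as variable as Il1b and Il1r2 were not covered by that check. Ratios used a pseudocount of 0.5 counts, and marker lists the mean log2(CPM + 1). Exact permutation tests ran over 252 assignments and correlations over 100000 permutations (scipy 1.17.1). No pair of libraries in a group was a duplicate (chi-square per degree of freedom 21.7 to 67.7).

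Alternatives were RLE and upper-quartile factors, other low-count filters, DESeq2 1.42.0, limma-voom (limma 3.58.1) with quality weights, the replicate number as a block, Y-linked reads or the neutrophil level as a term, another pseudocount, and leaving out each library. The genes, lists and tests were chosen with earlier results of these data known. Named were all 10 genes, 16 further pathway genes, any pathway gene that passed the threshold, Chil3, and the 5 genes most like each of Nlrp3, Il1b and Il1r2 whose average log2 CPM was 1 or more, without unnamed genes (some genes that this rule takes are not reported here); markers, Il1f9, Nlrp12 and the 4 genes with a low unadjusted p were named after their values were seen.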

Additional observations from a re-analysis of the deposited data

Results flagged for a closer look

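A value far from the others was looked for in 24 groups of 5 libraries. These were the 10 genes in CPM and 2 log2 ratios, in each group. By Dixon's criterion 5 stood out. The criterion's rate of about 1 in 20 holds for independent, normally distributed values. The genes were taken in CPM rather than log2 CPM, and Il1b and Il1r2 were high in the same libraries. The 5 can therefore not be set against that rate. Il1b in non-stressed replicate 1 was at 373.1 CPM, with the other non-stressed libraries at 37.57 to 108.1 CPM. Il1r2 in the same library was at 20.35 CPM, with the others at 1.886 to 5.884 CPM. Nlrp3 in non-stressed replicate 2 was at 102.2 CPM, below the others at 120.5 to 126.7 CPM. Aim2 in stressed replicate 4 was at 139.9 CPM, above the others at 103.9 to 114.2 CPM. The log2 ratio of Il18bp to Il18 in stressed replicate 4 was -3.559, with the other stressed libraries between -1.73 and -1.079.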

How the results depend on the processing

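0 of the 10 genes passed the adjusted threshold under any alternative run, and the lowest adjusted p of any of them was 0.0758 (Pycard, neutrophil level as a covariate, log2 fold change 0.44). Over all genes, the number called was 1 in the reported test and with RLE or upper-quartile factors, at least 1 CPM in 5 libraries or the Y-linked term, 10 with no low-count filter, 4 with the replicate block, 16 with the neutrophil covariate, 19 with DESeq2, 2 with limma-voom, and 1 to 2 when each library was left out (2 without non-stressed replicate 5). Among pathway genes 1 was called with the neutrophil covariate, Card9. The labels do not say that a replicate number marks a shared animal, batch or day. Same-numbered residuals correlated at 0.13, 0.16, -0.03, 0.12 and 0.12, not all over 0.1, so the block was kept as an alternative; as a hint from the data, 7 of 10 libraries matched their own number best, and same-numbered libraries shared their sex-linked transcripts. Under the replicate block Il1b was at 0.29, against 0.15 without it, and Pycard at 0.30 (edgeR unadjusted p = 0.013, adjusted p = 0.538). Pycard CPM was higher in the stressed library in 5 of 5 same-numbered pairs, though nearly level in replicate 4 (71.37 against 71.28 CPM). The share of all genes with 5 such pairs was not computed. With the block the exact p of the Il1rn to Il1b ratio was 0.438, against 0.556 without it. The number of the 10 genes with an unadjusted p under 0.05 was 0 in the reported test, 1 (Pycard) with the block, DESeq2, limma-voom or no low-count filter, and 2 (Pycard and Gsdmd) with the neutrophil covariate. It was also 1 without non-stressed replicate 1 (Il1b), and 1 without non-stressed replicate 4 or 5 or stressed replicate 1 or 2 (Pycard each time). Over all genes tested, such a p was found in 738 of 13334 in the reported test. It was found in 949 of 13334 with the block, 1116 of 22902 with DESeq2 and 1179 of 13334 with limma-voom. With no low-count filter it was 2576 of 23259, and with the neutrophil covariate 1435 of 13334. Without the single libraries named here it ran from 722 of 13590 to 938 of 13740.

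Directions turned for fold changes that did not pass the test in any setting. With the neutrophil covariate these were Il1b (-0.39), Il18 (0.033), Il1r2 (-0.54), Il1rap (-0.049), P2rx7 (0.015), Il1f9 (-0.30) and Nlrp12 (-1.003). With limma-voom they were Myd88 (0.0063), Irak2 (-0.021) and Nlrp12 (-0.64), and with the replicate block Irak2 (-0.0084) and Nlrp12 (-0.28). Leaving out each library gave log2 fold changes of -0.0082 to 0.15 for Aim2, -0.044 to 0.055 for Casp1, -0.0006 to 0.11 for Casp4, -0.35 to 0.995 for Il1b, -0.30 to 0.019 for Il18, -0.22 to 0.0796 for Il1rn, -0.42 to 0.84 for Il1r2, -0.041 to 0.26 for Il1rap, -0.65 to 0.075 for Il18rap, -0.041 to 0.096 for Nlrc4, -0.39 to 0.023 for Nlrp1b, -0.083 to 0.0086 for P2rx7, -0.10 to 0.012 for Myd88, -0.061 to 0.12 for Irak2, -0.041 to 0.11 for Irak3, -0.26 to 0.56 for Il1f9 and -0.66 to 0.73 for Nlrp12. The difference in the Il18bp to Il18 ratio was 0.22 to 0.84, and marker levels differed by -0.15 to -0.056 (endothelial), 0.067 to 0.13 (macrophage and monocyte), -0.45 to 0.0395 (B cell) and 0.41 to 0.97 (erythroid). The causes were not tested. The lowest count of a platform gene in a library was 1122 reads, and that of Il1r2 was 48.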

Other observations

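Besides Il1b and Il1r2, other pathway genes spread widely within both groups, and these were chosen after their values were seen. Nlrp12, an NLR protein of myeloid cells known as a regulator of inflammatory signalling, was at 30.7, 11.3, 11.7, 3.85 and 2.40 CPM in non-stressed replicates 1 to 5 and at 21.1, 31.0, 4.94, 1.39 and 2.94 CPM in the stressed ones. Its 3 highest libraries were the 3 highest in Il1b, and its log2 fold change was 0.04 (SE 0.75, edgeR adjusted p = 0.998). Il1f9 was at 23.5, 17.9, 12.1, 1.49 and 5.32 CPM against 19.4, 28.2, 7.27, 6.26 and 7.36 CPM, with the same 3 libraries highest and the groups overlapping. The within-group SD of log2 CPM was 1.66 for Nlrp12 and 1.31 for Il1f9, beside 1.16 for Il1b.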
